A study of Rattus norvegicus with 2 samples.

Results

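The 9 genes Asns, Got1, Got2, Gpt2, Bcat1, Glul, Glud1, Aldh18a1 and Pycr1, which encode enzymes of asparagine, glutamate and proline metabolism, were followed in rat cortical neural stem cells. They were listed by symbol, and each of the 9 was found once among the 25399 genes of the count matrix. The cells, bought from a supplier, came from the cortex of Sprague-Dawley rats at E14.5, and the medium of both groups held FGF2, which holds back differentiation. One group received 30 µM ZD7288, a compound known as a blocker of HCN channels (hyperpolarisation-activated cation channels), in 0.2% DMSO for 48 h, and the other received 0.2% DMSO as vehicle for 48 h. Medium was replaced at 24 h in both. The treated sample's label writes ZD2788 for the compound, while the treatment protocol writes ZD7288. Each group was 1 sample and 1 droplet library, so treatment, culture and library cannot be told apart, and no difference below has a replicate check or a p-value.

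Asparagine is made from aspartate, with glutamine giving the amide nitrogen, and aspartate, alanine and glutamate exchange their amino groups through transaminases. Proline is built from glutamate in a short route that starts in the mitochondrion. When amino acids run short or the endoplasmic reticulum is stressed, the transcription factor ATF4 is made in greater amounts and switches on genes for amino acid synthesis and uptake, of which Asns is among the best studied. In the brain, glutamine synthetase (Glul) is best known from astrocytes and radial glia, which take up glutamate and return it as glutamine.

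The ZD7288 library held 3135 kept cells with 73681950 unique molecular identifiers (UMIs, each a captured transcript counted once) and a median of 23001 per cell. The vehicle library held 732 cells, 15611454 UMIs and a median of 17119 per cell. Of 9 neural stem cell markers, 7 reached 20 CPM (UMIs per 1000000 of the library) in the ZD7288 library and 6 in the vehicle library, and their summed levels were 7502 CPM and 7557 CPM. Pax6, at 12.5 CPM in ZD7288 cells and 12.3 CPM in vehicle cells, and Hes5, at 0.0407 and 0.256 CPM, were below that floor. Vim, at 4690 CPM in ZD7288 cells and 4204 CPM in vehicle cells, and Fabp7, at 2023 and 2647 CPM, gave most of the sums. Single markers went either way. Slc1a3 stood at 294 CPM in ZD7288 cells and 186 CPM in vehicle cells, and Sox9 at 78.2 and 138 CPM. Sox2 and Nes had ratios of 1.08 and 1.11. Summed oligodendrocyte precursor markers stood at 1166 CPM in ZD7288 cells and 2128 CPM in vehicle cells, nearly all from Olig1 and Olig2. The sums for ZD7288 and vehicle cells were 82.2 and 70.0 CPM for astrocyte markers, 19.4 and 7.56 CPM for neuron markers, and 16.01 and 0.705 CPM for pericyte and fibroblast markers. Of the defining markers, Aqp4, Cx3cr1, Ptprc, C1qa, Cldn5 and Cdh5 were at 0 in both libraries. The part of these markers in the results below was not tested, and fewer cells of a type and less RNA per cell cannot be told apart in levels summed over a library.

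Promoter windows were read for the members because ATF4 acts through a short composite element. RefSeq windows of assembly GRCr8, from 250 bases before to 50 bases after a transcript start, were at hand for 8 of the 9 members, in 10 windows. The core of the element, TGATGNAA, was searched on both strands, as was the cyclic AMP response element TGACGTCA. These motifs were in 3.98% and 1.83% of all 33469 windows of this length. TGATGNAA was found in 2 of the 10 windows, those of Got1 and Pycr1, and TGACGTCA in 0 of them. The windows of both genes are shown, with the matched letters in capitals, together with that of Asns, which is the member with the largest well-counted difference and whose window held neither motif.
Got1: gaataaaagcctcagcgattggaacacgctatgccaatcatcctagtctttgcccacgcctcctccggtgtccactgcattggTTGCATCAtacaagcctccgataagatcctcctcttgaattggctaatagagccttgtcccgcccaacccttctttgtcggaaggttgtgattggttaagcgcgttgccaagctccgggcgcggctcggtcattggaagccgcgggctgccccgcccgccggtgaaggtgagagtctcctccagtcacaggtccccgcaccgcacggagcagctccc
Pycr1: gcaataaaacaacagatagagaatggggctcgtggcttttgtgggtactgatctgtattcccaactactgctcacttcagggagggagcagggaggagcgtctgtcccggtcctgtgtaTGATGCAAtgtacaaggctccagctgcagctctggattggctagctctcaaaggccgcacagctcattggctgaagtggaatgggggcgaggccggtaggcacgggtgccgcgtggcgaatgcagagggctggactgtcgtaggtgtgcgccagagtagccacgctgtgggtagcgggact
Asns: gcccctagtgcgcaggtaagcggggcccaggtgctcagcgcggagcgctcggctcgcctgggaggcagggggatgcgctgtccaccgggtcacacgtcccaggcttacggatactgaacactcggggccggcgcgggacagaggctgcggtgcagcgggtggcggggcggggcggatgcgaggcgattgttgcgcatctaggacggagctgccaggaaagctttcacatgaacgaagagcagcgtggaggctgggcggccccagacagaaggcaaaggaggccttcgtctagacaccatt
The Got1 window is chr1:252329822-252330121 on the minus strand, and its match lies on the opposite strand of the window, starting 167 bases before the transcript start. The Pycr1 window is chr10:106420763-106421062 on the minus strand, with its match starting 131 bases before the start. The Asns window is chr4:36769366-36769665 on the minus strand. A match is a run of letters and not a shown binding site, and the lack of one speaks only of these letters in this window.

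Of the 9 genes, 6 reached 20 CPM in the higher library and were counted as measured, namely Asns, Got1, Got2, Bcat1, Glul and Glud1. Of these 6, Asns, Bcat1 and Got1 were at least 1.5-fold higher in the ZD7288 library, and 0 were lower by that measure. Among all 4823 measured genes, 10.1% were higher and 5.2% lower by 1.5-fold or more (485 and 251 genes). Library totals were also replaced by a scaling that sets the median ratio of genes to 1. Then 343 of 4765 measured genes were higher and 348 lower, while 3 of 6 members were higher and 0 lower. The median log2 ratio of the 6 was 0.59, beside 0.09 over all measured genes. At 2-fold, Asns and Bcat1 were left, against 2.88% of all genes.

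Asparagine synthetase, Asns (ENSRNOG00000007546), stood at 320.3 CPM (95% interval 316 to 324) in ZD7288 cells and 35.4 CPM (32.5 to 38.5) in vehicle cells, from 23600 and 553 UMIs. Its ratio was 9.04 (8.31 to 9.86), and it held place 11 among the ratios of the 4823 measured genes. The cytosolic branched-chain aminotransferase gene Bcat1 (ENSRNOG00000015514), whose enzyme moves nitrogen from leucine, isoleucine and valine to form glutamate, stood at 177 CPM (174 to 180) in ZD7288 cells and 55.7 CPM (52.0 to 59.5) in vehicle cells. Its ratio was 3.18 (2.96 to 3.41), from 13025 and 869 UMIs. The cytosolic aspartate aminotransferase gene Got1 (ENSRNOG00000016356), whose enzyme links aspartate and glutamate, stood at 61.8 CPM (60.0 to 63.6) in ZD7288 cells and 32.1 CPM (29.3 to 35.0) in vehicle cells. That was a ratio of 1.92 (1.75 to 2.11), from 4550 and 501 UMIs. For these 3 genes the counting intervals of the libraries lay far apart. These intervals cover counting error only.

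Got2, Glul and Glud1 differed less between the libraries. Got2 (ENSRNOG00000011782), the mitochondrial partner of Got1, stood at 147 CPM (144 to 149) in ZD7288 cells and 127 CPM (122 to 133) in vehicle cells, a ratio of 1.15 (1.099 to 1.21). The glutamine synthetase gene Glul (ENSRNOG00000049560) stood at 150.2 CPM (147 to 153) in ZD7288 cells and 128 CPM (122 to 134) in vehicle cells, a ratio of 1.18 (1.12 to 1.23). The glutamate dehydrogenase gene Glud1 (ENSRNOG00000057367), whose mitochondrial enzyme splits glutamate into 2-oxoglutarate and ammonia, stood at 82.1 CPM (80.0 to 84.2) in ZD7288 cells and 73.5 CPM (69.3 to 77.9) in vehicle cells, a ratio of 1.12 (1.05 to 1.19). None of the 3 reached 1.5-fold, although their counts were as deep as those of Got1 or deeper. The levels of Got2 and Glul are uncertain, because RefSeq names 6 pseudogenes of Got2 and 2 of Glul, and reads can be divided or lost among such copies.

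**Figure D1:**
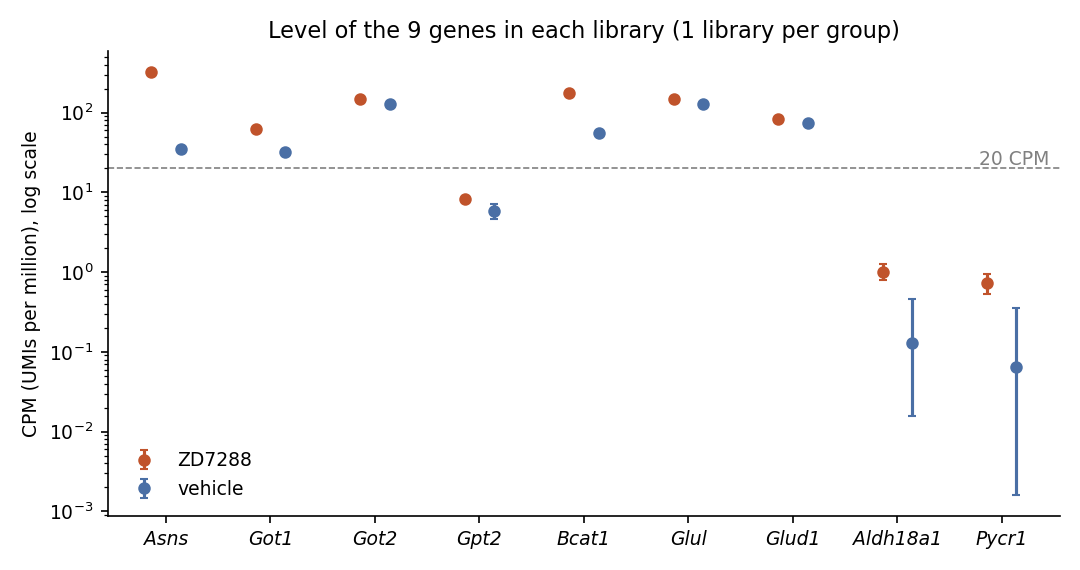
Level of each of the 9 genes in the ZD7288 library (left point of each pair) and the vehicle library (right point), in CPM on a log axis, with exact 95% Poisson intervals and the 20 CPM floor as a dashed line. Asns, Got1 and Bcat1 are set apart between the libraries, Got2, Glul and Glud1 lie close, and Gpt2, Aldh18a1 and Pycr1 lie under the floor.

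Gpt2, Aldh18a1 and Pycr1 did not reach the floor in either library and enter no count of members. The annotation used for counting is not known, and whether reads of these genes were lost in counting was not tested. Gpt2 (ENSRNOG00000059579), the mitochondrial alanine aminotransferase gene, had 612 UMIs in ZD7288 cells and 90 in vehicle cells, or 8.31 CPM (7.66 to 8.99) and 5.77 CPM (4.64 to 7.09). Its ratio was 1.44 (1.15 to 1.82). Aldh18a1 (ENSRNOG00000015267), which encodes the enzyme that turns glutamate into the precursor of proline, had 74 UMIs in ZD7288 cells and 2 in vehicle cells. That is 1.00 CPM (0.789 to 1.26) and 0.128 CPM (0.0155 to 0.463), a ratio of 7.84 (2.09 to 65.9). Pycr1 (ENSRNOG00000036682), for a mitochondrial reductase of the last step to proline, had 53 UMIs in ZD7288 cells and 1 in vehicle cells. That is 0.719 CPM (0.539 to 0.941) and 0.0641 CPM (0.00162 to 0.357), a ratio of 11.2 (1.93 to 452). The ratio intervals of Aldh18a1 and Pycr1 thus lay above 1, with sizes that 1 or 2 vehicle UMIs leave almost unbounded above. At 5000 UMIs per cell, the intervals of their shares of cells overlapped between the libraries. For Aldh18a1, the log2 ratio was 2.97, and 3.97 without the cells whose barcode sequence is in both libraries, since 1 of its vehicle UMIs came from such a cell. For Pycr1 the log2 ratio was 3.49, and 4.36 with every cell given equal weight.

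Paralogs of 3 members divided as follows. Got1 gave 29.6% (28.9 to 30.4) of the joint UMIs of Got1 and Got2 in ZD7288 cells and 20.1% (18.6 to 21.8) in vehicle cells, so the cytosolic share was the larger after ZD7288. Bcat1 gave 95.6% (95.3 to 96.0) of the joint UMIs with Bcat2, the mitochondrial isoenzyme gene, in ZD7288 cells and 93.4% (91.7 to 94.9) in vehicle cells. Bcat2 itself had 8.10 CPM in ZD7288 cells and 3.91 CPM in vehicle cells, a ratio of 2.07 (1.59 to 2.75). Gpt2 gave 89.9% (87.4 to 92.0) of the UMIs of Gpt and Gpt2 in ZD7288 cells and 81.8% (73.3 to 88.5) in vehicle cells, where the intervals overlap. Gpt, for the cytosolic alanine aminotransferase, had 0.936 CPM and 1.28 CPM, a ratio of 0.731 (0.439 to 1.27).

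Counted per cell at 5000 UMIs each, Asns was seen in 75.0% (73.3 to 76.6) of 2838 ZD7288 cells and 15.4% (12.8 to 18.2) of 710 vehicle cells. Without thinning, the shares were 92.7% and 41.8%. A cell with 3 or more Asns UMIs made up 23.7% of ZD7288 cells and 0.423% of vehicle cells, and the mean per cell was 1.59 (SD over cells 1.39) and 0.180 (SD over cells 0.458). Most ZD7288 cells thus held an Asns UMI at this depth, and most vehicle cells held none. Bcat1 was seen in 56.4% (54.5 to 58.2) of ZD7288 cells and 21.97% (19.0 to 25.2) of vehicle cells, and without thinning in 88.1% and 56.6%. Got1 was seen in 25.3% (23.7 to 26.9) of ZD7288 cells and 12.5% (10.2 to 15.2) of vehicle cells, and without thinning in 68.5% and 44.4%.

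The genes with small ratios also had like shares of cells in the libraries. At 5000 UMIs, Got2 was seen in 52.0% (50.2 to 53.9) of ZD7288 cells and 47.2% (43.5 to 50.9) of vehicle cells, Glul in 49.7% (47.8 to 51.5) and 45.2% (41.5 to 49.0), and Glud1 in 32.1% (30.4 to 33.9) and 32.7% (29.2 to 36.3). Without thinning, the shares in ZD7288 and vehicle cells were 87.9% and 86.1% for Got2, 87.1% and 84.7% for Glul, and 76.9% and 69.1% for Glud1. At equal depth the share for Glud1 was no higher in ZD7288 cells. Gpt2 was seen in 4.05% (3.36 to 4.84) and 3.38% (2.18 to 4.99). Aldh18a1 was seen in 12 ZD7288 cells and 1 vehicle cell, and Pycr1 in 13 ZD7288 cells and in 0 of 710 vehicle cells, where 3 cells with a UMI would be 0.423% and the exact 95% interval reaches 0.518%. A ZD7288 cell held UMIs of a mean of 2.95 of the 9 genes (SD over cells 1.19), and a vehicle cell of 1.78 (SD over cells 1.09). This mean covers all 9 genes, and the largest differences in share of cells were those of Asns, Bcat1 and Got1. How many of these UMIs came from free RNA was not measured, since the libraries offered no cells known to be without these transcripts.

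**Figure D2:**
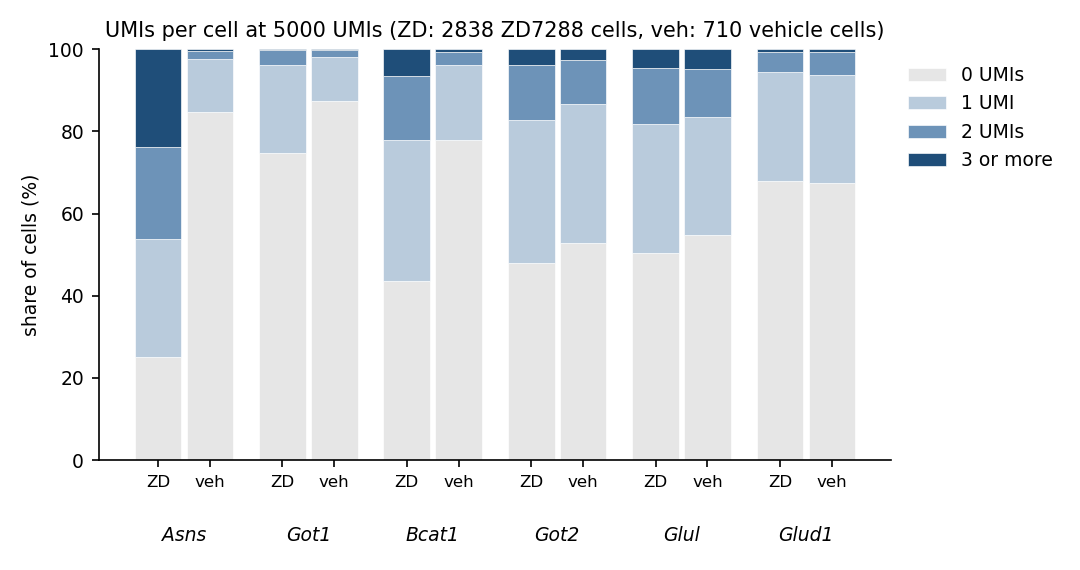
Share of cells with 0, 1, 2 or at least 3 UMIs of each of the 6 measured genes, with every cell thinned to 5000 UMIs; the left bar of each pair is the ZD7288 library (ZD) and the right bar the vehicle library (veh). Cells without an Asns UMI make up 25.0% of ZD7288 cells and 84.6% of vehicle cells, while the bars of Got2, Glul and Glud1 are alike.

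Within each library, the members were then set against UMIs of 41 other genes known as ATF4 targets, which hold none of the 9. Cells were ordered by the summed UMIs of that list at 5000 UMIs per cell and divided near the quartiles into 4 groups of unequal size, with 730, 712, 625 and 771 ZD7288 cells and 203, 189, 118 and 200 vehicle cells from lowest to highest. The list had 48 to 93 UMIs per cell in the highest group of ZD7288 cells and 3 to 29 in the lowest, and in vehicle cells 14 to 47 and 0 to 8. In ZD7288 cells, Asns stood at 419 CPM (399 to 440.4) in the highest group and 171 CPM (158 to 185) in the lowest, a ratio of 2.46 (2.24 to 2.70). Bcat1 stood at 219 CPM (204 to 234) and 111 CPM (101 to 123), a ratio of 1.97 (1.74 to 2.22), and Got1 at 71.3 CPM (63.2 to 80.3) and 45.2 CPM (38.6 to 52.7), a ratio of 1.58 (1.30 to 1.93). The measured members that were higher after ZD7288 as a library were also the ones that differed between these groups of ZD7288 cells. That was 3 of 6 members higher by 1.5-fold, against 5.04% of 4800 measured genes. By the same measure 0 of 6 members were lower, against 1.71% of genes. The members and this list were chosen with earlier results of these data known. These counts, and those in vehicle cells below, are therefore description only.

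Glul, Got2 and Glud1 had ratios of 1.02 (0.901 to 1.15), 0.937 (0.831 to 1.06) and 0.879 (0.742 to 1.04) between the same groups of ZD7288 cells, each interval holding 1. In vehicle cells, Asns stood at 76.0 CPM (59.9 to 95.1) in the highest group and 15.8 CPM (9.01 to 25.6) in the lowest, a ratio of 4.82 (2.79 to 8.86) over 76 and 16 UMIs. Bcat1 had a ratio of 1.61 (1.07 to 2.44) there and Got1 of 1.35 (0.799 to 2.32), so 2 of 6 members passed 1.5-fold against 9.31% of 4768 measured genes, and 0 were lower, against 3.48%. Asns thus differed with the list in cells without ZD7288 too. For Asns and Bcat1, the lowest group of ZD7288 cells still lay above the highest group of vehicle cells, at 171 against 76.0 CPM and 111 against 65.0 CPM (50.2 to 82.8), with intervals apart. For Got1, with 45.2 CPM against 36.0 CPM (25.2 to 49.8), the intervals overlapped. The share of mitochondrially encoded UMIs differed with the grouping, with medians of 4.18% in the highest and 5.59% in the lowest group of ZD7288 cells and 5.24% and 6.32% in vehicle cells, and its part in these ratios was not tested.

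**Figure D3:**
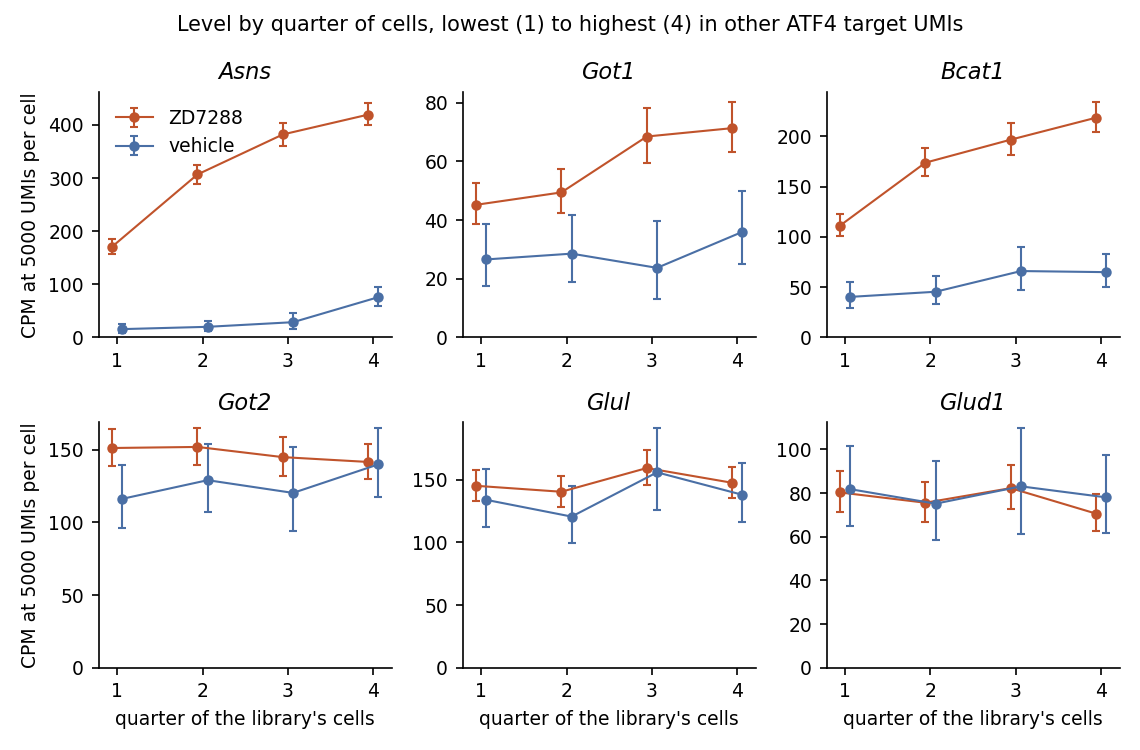
CPM of the 6 measured genes (vertical axis, from 0) in 4 groups of cells per library, from the lowest (1) to the highest (4) in summed UMIs of 41 other ATF4 target genes, all at 5000 UMIs per cell, with exact 95% Poisson intervals. In ZD7288 cells Asns, Got1 and Bcat1 climb over the groups while Got2, Glul and Glud1 stay level, and Asns in the lowest ZD7288 group (171 CPM) exceeds the highest vehicle group (76.0 CPM).

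Over single ZD7288 cells, the genes most like Asns among 4551 compared were Eif4ebp1, a repressor of translation initiation, with Pearson r = 0.25, Slc3a2, the shared heavy chain of amino acid transporters, with r = 0.23, and Eprs, a tRNA synthetase for glutamate and proline, with r = 0.22. All 3 belong to the list of ATF4 targets used above. The median r of Asns with all genes compared was 0.00 and the 99th percentile 0.08, over 2838 cells at 5000 UMIs, and cells of 1 library share its capture and chemistry. None of Got1, Got2, Glul, Glud1 and Bcat1 reached r = 0.2 with any gene, and the 3 members under the floor were not compared. Between pairs of members, r was 0.14 for Asns and Bcat1 and between -0.03 and 0.04 for the other pairs in ZD7288 cells. All of these values are weak.

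Across ranges of cell cycle RNA, Asns, Bcat1 and Got1 were higher in ZD7288 cells in each range, while Glul, Got2 and Glud1 each had a ratio below 1 in 1 range. Cells were divided at 10 UMIs of S phase and G2/M genes per 2000 UMIs, and those above by which of the lists gave more. These are ranges of a score and not phases of the cycle. There were 666 ZD7288 and 68 vehicle cells in the low range, 418 and 89 leaning to S phase, and 1872 and 567 leaning to G2/M. In the low range Asns stood at 329.7 CPM (320.5 to 339) in ZD7288 cells and 46.0 CPM (33.8 to 61.2) in vehicle cells. Among S-leaning cells it stood at 282 CPM (271 to 293) after ZD7288 and 46.6 CPM (36.5 to 58.6) after vehicle. Among G2/M-leaning cells it stood at 325 CPM (319.6 to 329.7) after ZD7288 and 33.2 CPM (30.1 to 36.5) after vehicle. Its ratios were 7.16 (5.38 to 9.76), 6.05 (4.79 to 7.74) and 9.78 (8.89 to 10.8), so the S-leaning range was lowest, with lower Asns in ZD7288 cells and higher Asns in vehicle cells than in the G2/M-leaning range. Whether the ratios differ between ranges was not tested.

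Bcat1 had ratios of 2.97 (2.29 to 3.91), 2.59 (2.12 to 3.19) and 3.31 (3.06 to 3.58) in the low, S-leaning and G2/M-leaning ranges. Those of Got1 were 2.03 (1.41 to 3.02), 1.56 (1.18 to 2.10) and 1.99 (1.80 to 2.21). Asns, Bcat1 and Got1 passed 1.5-fold in every one of these ranges, against 18.5%, 11.3% and 10.2% of measured genes that were higher there. With the division at 15 UMIs, Got1 no longer passed it in the S-leaning range, at 1.30 (0.946 to 1.81), and at 5 UMIs its ratio in the low range was 3.92 (1.51 to 14.48), from 18 vehicle cells. None of the 6 was lower by 1.5-fold in any range, against 9.06%, 4.98% and 4.94% of genes. Got2, Glul and Glud1 did not pass 1.5-fold in any of the 3. The ratio was 0.993 for Glul in the low range, and 0.991 for Got2 and 0.962 for Glud1 in the S-leaning range. In the low and S-leaning ranges the intervals of Got2, Glul and Glud1 all held 1, and in the G2/M-leaning range their ratios were 1.21 (1.14 to 1.27), 1.21 (1.15 to 1.28) and 1.14 (1.06 to 1.22).

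**Figure D4:**
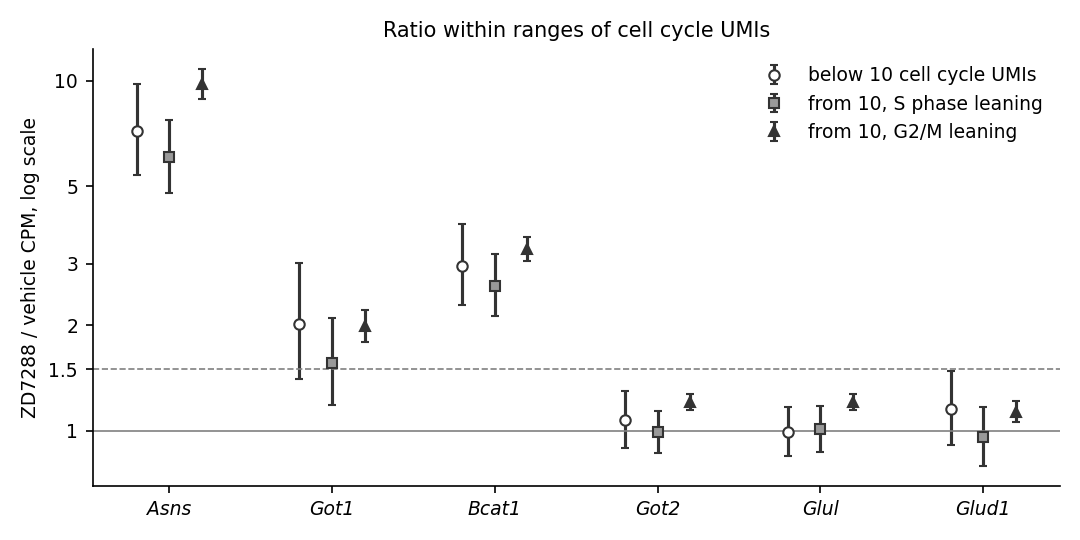
Ratio of ZD7288 to vehicle CPM (log axis) of the 6 measured genes in cells below 10 cell cycle UMIs, in S-leaning cells and in G2/M-leaning cells, with exact 95% intervals; the solid line marks a ratio of 1 and the dashed line 1.5. Asns, Got1 and Bcat1 lie above the dashed line in each range, with Asns between 6.05 and 9.78.

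The neighbouring enzymes were read from lists that include the members, so that Asns, Got1 and Bcat1 count again in them. Each count stands beside the 10.1% of all measured genes that were higher and the 5.2% that were lower. Of 7 measured genes of asparagine and aspartate metabolism (12 of 13 matched), 4 were higher and 1 lower by 1.5-fold. The lower one was Asrgl1, an asparaginase gene, at 26.2 CPM in ZD7288 cells and 57.7 CPM in vehicle cells, a ratio of 0.454 (0.419 to 0.491). The gene that makes asparagine and one that breaks it down therefore lay on opposite sides. The higher ones besides Asns and Got1 were Adsl and Adss, at 1.60-fold (1.48 to 1.73) and 1.51-fold (1.41 to 1.63). Adss joins aspartate to IMP, and Adsl splits the product into AMP and fumarate. With the median ratio set to 1, 3 of the 7 were higher, against 343 of 4765 measured genes. Of 8 measured genes that make or use glutamine or glutamate (15 matched), 2 were higher and 0 lower, and the one besides Asns was the GMP synthetase gene Gmps, at 134 CPM in ZD7288 cells and 80.3 CPM in vehicle cells. Its ratio was 1.67 (1.57 to 1.77).

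Of 5 measured proline and ornithine genes (13 of 15 matched), 1 was higher and 0 lower, a share that 1 gene decides and that is not set apart from the 10.1% over all genes. The gene was Nadk2, a mitochondrial NAD kinase that supplies the cofactor for proline synthesis. It stood at 22.4 CPM in ZD7288 cells and 11.98 CPM in vehicle cells, a ratio of 1.87 (1.60 to 2.18). Nadk2 reached the 20 CPM floor only in the ZD7288 library, so its direction was fixed by its entry into the count. At 2000 UMIs per cell, 0 of the 5 were higher, against 592 of 4887 measured genes. Of 5 measured transaminases (15 matched), 3 were higher and 0 lower, and the one that is no member was the serine synthesis gene Psat1, at 518 CPM in ZD7288 cells and 161 CPM in vehicle cells, a ratio of 3.22 (3.09 to 3.35). Of 9 measured genes of branched-chain amino acid breakdown (14 matched), 2 were higher and 0 lower, Bcat1 and Dld. Dld, for a dehydrogenase subunit shared between complexes, was 1.53-fold higher (1.44 to 1.61). The other 7 measured genes of that list had ratios between 0.729 and 1.35. With the median ratio set to 1, 1 gene of this list was higher, against 343 of 4765 measured genes. With a stricter cell filter (at least 5000 UMIs and 2000 genes, at most 7% mitochondrial UMIs), 1 was higher, against 410 of 4819. At 2000 UMIs per cell 4 were higher and 1 lower, against 592 and 312 of 4887. Of 5 measured genes of the malate-aspartate shuttle (9 matched), 1 was higher, Got1, and 0 lower. The medians of these lists, with the members in them, ran from 0.20 to 0.94 on the log2 scale, beside 0.09 over all measured genes. The highest, that of the transaminases, was the value of Got1 itself. The lists were chosen with earlier results of these data known, so these medians are description only. Atf4 itself had a ratio of 2.25 (2.15 to 2.35), below that of Asns and Bcat1 and above that of Got1.

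**Figure D5:**
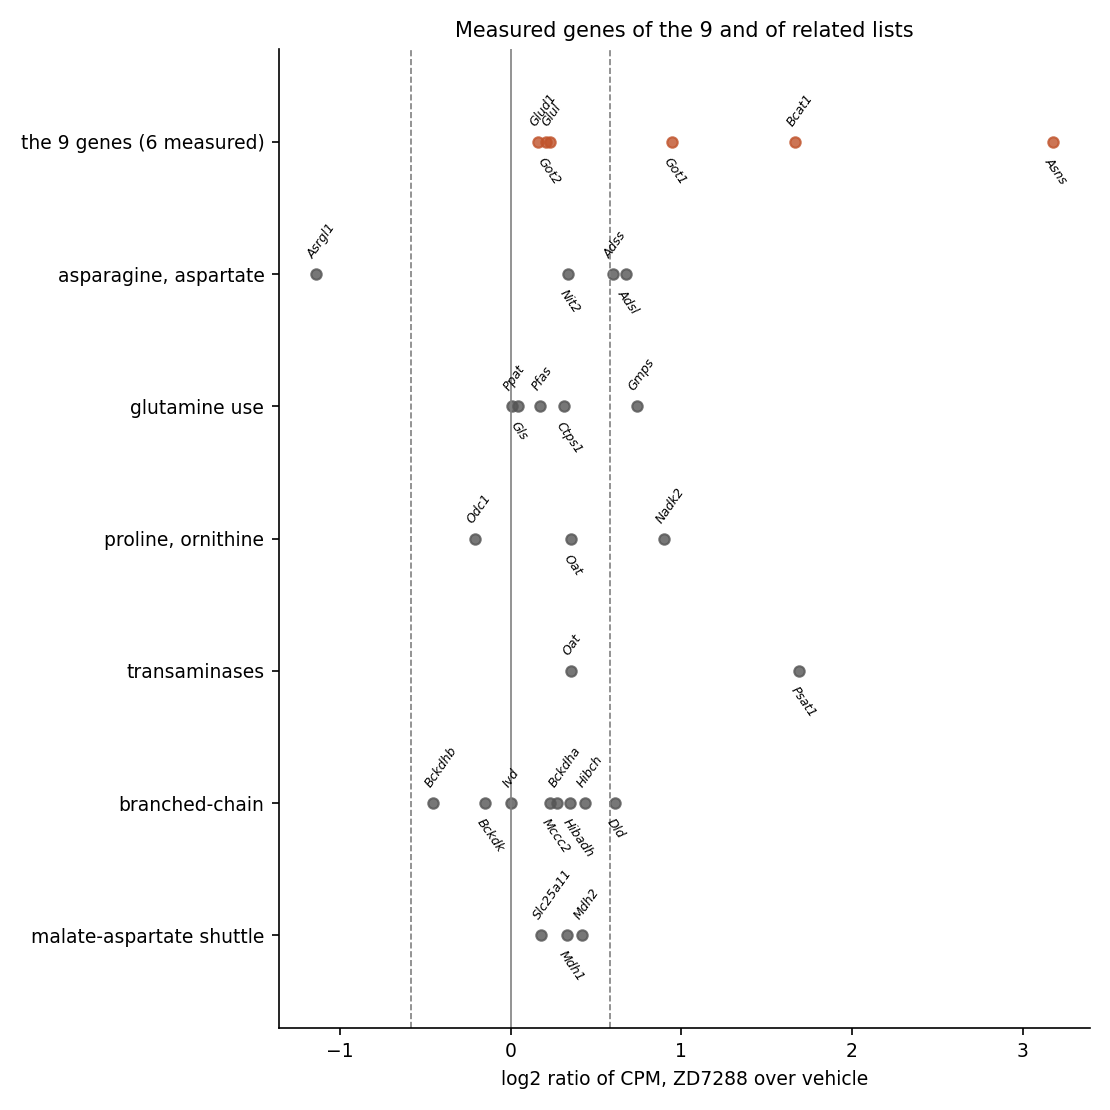
log2 ratio of ZD7288 over vehicle CPM for the 6 measured members (top) and for measured genes of 6 related lists that are no members; dashed lines mark 1.5-fold in each direction. Asns, Bcat1 and Got1 lie right of the dashed line with Psat1, Nadk2, Gmps, Adsl, Adss and Dld, and Asrgl1 lies left of it. Nadk2 reached the 20 CPM floor only in the ZD7288 library.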

How the data were processed

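Per the labels' protocols, libraries were made with the 10x Chromium 3′ kit, version 2. The authors deposited raw UMI counts of 25399 genes in 4691 barcodes, made with Cell Ranger per the submitters' processing notes (software version 3.0.2 per the file headers). For the genome build, the annotation and any equalisation of depth, nothing was given in the sources used here. The number after each barcode's hyphen was matched to the number that opens a sample title, and every direction rests on this. Among kept cells, 3 barcode sequences occur in both libraries.

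Cells with at least 1000 UMIs, 500 genes and at most 10% mitochondrially encoded UMIs were kept. CPM are summed UMIs per 1000000. Intervals are exact (Poisson for CPM, Clopper-Pearson for ratios and shares, 95%). Named genes were the 9 members, their paralogs, up to 3 genes past 1.5-fold per list, up to 3 most alike genes at r of 0.2 or more, and Atf4, Ddit3 and Psat1. Ddit3 had a ratio of 3.13 (2.76 to 3.57). The members and lists were chosen with earlier results of these data known. Cells were ranked by a simulated-doublet score, and the top 79 in the ZD7288 and 4 in the vehicle library were marked as doublets. These numbers were preset from the cell counts (0.8% per 1000 cells) and not found by the score. The marked cells stayed in. Thinning left out 297 ZD7288 and 22 vehicle cells at 5000 UMIs and 179 and 8 at 2000. Tools were Python 3.11.15, numpy 2.4.6, scipy 1.17.1 and scikit-learn 1.9.0, and the ratio and interval code was tested on simulated data. Protein sequences were not used here, and 2 paralogs are not reported here.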

Additional observations from a re-analysis of the deposited data

Results flagged for a closer look

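Barcodes outside the cell filter, 714 of the ZD7288 library and 110 of the vehicle library, were used in no comparison above, and 3 of the 6 measured members had a higher level there in the ZD7288 library with counting intervals apart, against 5.35% of the 4823 measured genes. By the same measure 0 of the 6 were lower, against 4.37%. These barcodes held 2075771 UMIs in the ZD7288 library and 324014 in the vehicle library. Intervals part more readily for genes with more counts, so the shares over genes of all levels are not a like background. Asns stood at 228 CPM (208 to 249) in the ZD7288 barcodes and 21.6 CPM (8.69 to 44.5) in the vehicle barcodes. Bcat1 stood at 112 CPM (97.8 to 127) in the ZD7288 barcodes and 49.4 CPM (28.2 to 80.2) in the vehicle barcodes. Glul stood at 93.5 CPM (80.8 to 108) in the ZD7288 barcodes and 46.3 CPM (25.9 to 76.4) in the vehicle barcodes, from 194 and 15 UMIs. Got1 stood at 43.4 CPM (34.9 to 53.3) in the ZD7288 barcodes and 49.4 CPM (28.2 to 80.2) in the vehicle barcodes, with intervals that overlap.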

How the results depend on the processing

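Asns, Bcat1 and Got1 stayed past 1.5-fold in each of 8 other settings of scaling, cell filter, cell weight, thinning, doublets and shared barcodes, the last added after the data were seen. Their log2 ratios ranged from 3.09 to 3.25, 1.58 to 1.78 and 0.84 to 1.06. Glul, Got2 and Glud1 stayed below it, with lows of 0.10, 0.08 and -0.05 at 2000 UMIs per cell. There Aldh18a1 and Pycr1 had 0 vehicle UMIs and gave no value. Over all genes, the count higher was 139 of 4823 measured genes at 2-fold and 810 of 7589 with a floor of 5 CPM. The count lower was 61 at 2-fold and 612 with that floor. It was 427 of 5579 with totals free of mitochondrial and ribosomal protein genes. Of 120 list counts, 11 moved by over 1.5 times. The cause of the moved counts was not tested. Shares of cells moved with depth in 32 of 36 cases, which is built in, since thinning takes UMIs out of each cell. In the low range of cell cycle RNA, the log2 ratio of Got1 was 1.02 at 10 UMIs and 1.97 at a threshold of 5 UMIs, where 18 vehicle cells were left. No paired analysis was possible because each group has 1 library. The values of Aldh18a1 and Pycr1 rest on 2 and 1 vehicle UMIs.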
